A study of Homo sapiens with 12 samples.

Results

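The 9 genes described here belong to the calcineurin-NFAT pathway or serve as readouts of calcium signalling, and were chosen by symbol: RCAN1, RCAN2, RCAN3, NFATC1, NFATC2, NFATC3, NFATC4, PPP3CA and STC1. All 9 of the 9 symbols were found among the 24180 symbols of the count tables. RNA was sequenced from 143B cells, a human osteosarcoma line derived from HOS cells by transformation with the Kirsten ras oncogene, in 12 libraries. The control group is named NC, and the treated groups are BSG, M-BSG and M-BSG-Hot, with 3 libraries in each of the 4 groups, and all 12 samples were labelled as wild type. The sample titles tie BSG to a material of that name, M-BSG to a material named 5-MNP-BSG and M-BSG-Hot to the same material with a plus sign, and the series title speaks of borosilicate bioactive glass and magnetic hyperthermia. All samples, NC among them, carry 1 treatment text that speaks of the magnetic material in an alternating magnetic field. Material, field, dose and time are therefore not given group by group. The labels do not say whether the 3 libraries per group are separate cultures. The p-values therefore measure only the spread between these libraries, which may be technical.

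Calcineurin is a protein phosphatase that is switched on when calcium-loaded calmodulin binds it. It is built from a catalytic subunit, such as the product of PPP3CA, and a regulatory subunit that also binds calcium. Active calcineurin removes phosphates from the cytoplasmic factors NFATC1 to NFATC4, which then enter the nucleus and, often together with AP-1, switch on target genes, while kinases put the phosphates back and return NFAT to the cytoplasm. The RCAN proteins bind calcineurin and restrain it, and a short RCAN1 transcript that begins at an internal start is itself an NFAT target, which closes a feedback loop. STC1 encodes stanniocalcin-1, a secreted glycoprotein first known as a hormone that lowers calcium in fish. Activation of NFAT is a change in protein phosphorylation and location, which counts of RNA do not measure.

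The libraries held 34434993 to 38163152 counts each, with 18827 to 19599 symbols detected. Within their groups BSG 1, M-BSG 1 and M-BSG-Hot 3 differed most from the rest, and STC1 is also given without them. The mesenchymal marker VIM was at 3483 to 4641 CPM (a scale common to all libraries, with TMM factors) and the osteoblast factor RUNX2 at 10.2 to 16.9 CPM, while the later osteoblast genes SP7 and BGLAP had 0 to 1 and 0 to 5 counts. Other genes of the same marker list were present, with SPP1 at 9.94 to 14.6, COL1A1 at 5.23 to 8.91 and ALPL at 1.81 to 3.56 CPM. The epithelial genes CDH1 and KRT5 had 0 to 6 and 0 to 3 counts, while the epithelial gene EPCAM was at 13.7 to 21.9 CPM, PECAM1 at 0.539 to 2.09 and CD68 at 120 to 165 CPM. Of 9 tested marker genes edgeR and limma called 0 in every comparison with NC. The counts at an unadjusted p under 0.05 were 2 in BSG (CDH5 and EPCAM), 0 in M-BSG and 3 in M-BSG-Hot (RUNX2, SPP1 and PECAM1), and DESeq2 called CDH5 and EPCAM in BSG and PECAM1 in M-BSG-Hot. The part of these markers in the results below was not tested. In bulk RNA, fewer cells with a transcript and less transcript per cell cannot be told apart.

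Levels of different genes were compared as FPKM (counts scaled by library size and gene length), over all 12 libraries. PPP3CA, the catalytic alpha subunit of calcineurin, had the highest level at 11.2 ± 1.10 FPKM (SD, n = 12 libraries), followed by NFATC3 at 8.41 ± 0.527. RCAN1 and STC1 stood close together at 5.00 ± 0.334 and 4.76 ± 0.583 FPKM, and RCAN3 followed at 3.17 ± 0.260. NFATC4 was at 2.31 ± 0.316 and NFATC1 at 2.05 ± 0.102 FPKM. RCAN2 was at 0.741 ± 0.144 FPKM. NFATC2 was the least abundant at 0.0675 ± 0.0208 FPKM, which rested on 14 to 38 counts per library.

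In this order the neighbours PPP3CA and NFATC3, RCAN1 and STC1, RCAN3 and NFATC4, and NFATC4 and NFATC1 overlapped over the 12 libraries. The range of NFATC3 lay above that of RCAN1, STC1 above RCAN3, NFATC1 above RCAN2 and RCAN2 above NFATC2. NFATC3 had the highest RNA level per length among the NFAT genes and RCAN1 among the RCAN genes.

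**Figure D1:**
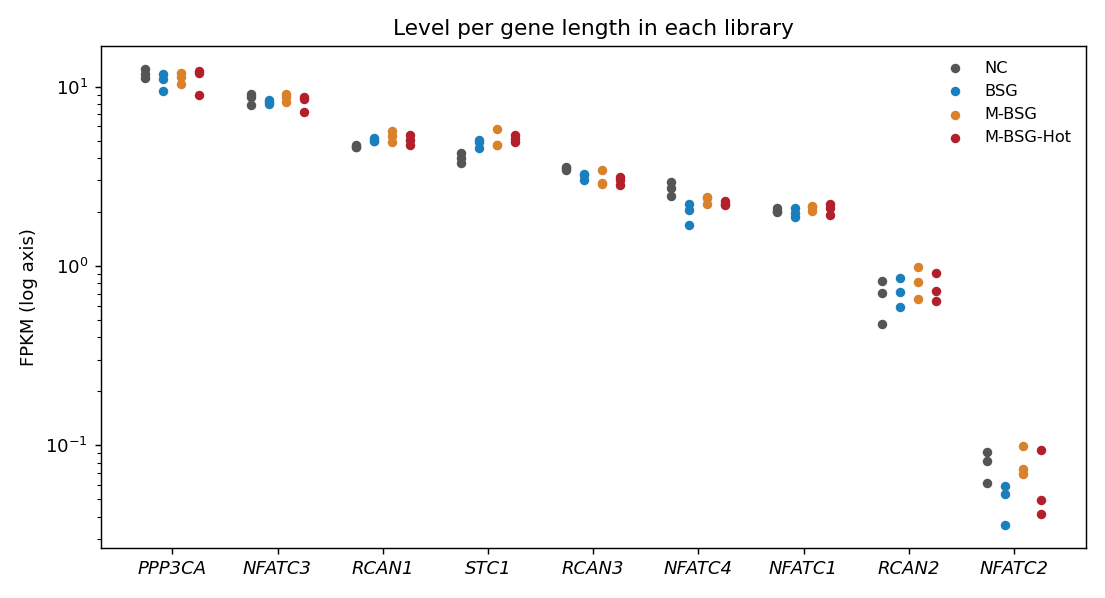
Level of each gene per gene length in the 12 libraries, in FPKM on a log axis; each point is 1 library, coloured by group, and genes are ordered by their mean. PPP3CA and NFATC3 lie at the top, and NFATC2 lies below 0.1 FPKM in all libraries.

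All 9 genes passed the filter on low counts and entered the test, an edgeR quasi-likelihood fit of all 12 libraries over 15407 genes with Benjamini-Hochberg adjustment. Genes with an adjusted p under 0.05 are called higher or lower. In BSG against NC, 1 of the 9 genes was called higher (STC1) and 1 lower (NFATC4), where 11.7% of all tested genes were called, 5.50% higher and 6.22% lower. In M-BSG against NC and in M-BSG-Hot against NC, STC1 alone was called, higher both times. Of all tested genes 6.35% were called in M-BSG, 3.22% higher and 3.13% lower, and 4.91% in M-BSG-Hot, 1.40% higher and 3.51% lower. These 3 comparisons share the NC libraries. Groups did not overlap for 5 of the 9 genes in BSG, 2 in M-BSG and 4 in M-BSG-Hot compared with NC, where 38.7%, 27.5% and 28.0% of all tested genes had no overlap. With so few genes, neither set of counts stands out from these background shares.

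Fold changes were small for most members. The median log2 fold change of the 9 genes was 0.02 in BSG, 0.10 in M-BSG and 0.01 in M-BSG-Hot against NC, where the median over all tested genes was -0.02, -0.01 and 0.00. The median size without regard to sign was 0.19, 0.13 and 0.18 for the members and 0.21, 0.14 and 0.14 for all genes. Across the 12 libraries the coefficient of variation had a median of 7.99% for the members and of 13.6% for all tested genes.

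**Figure D2:**
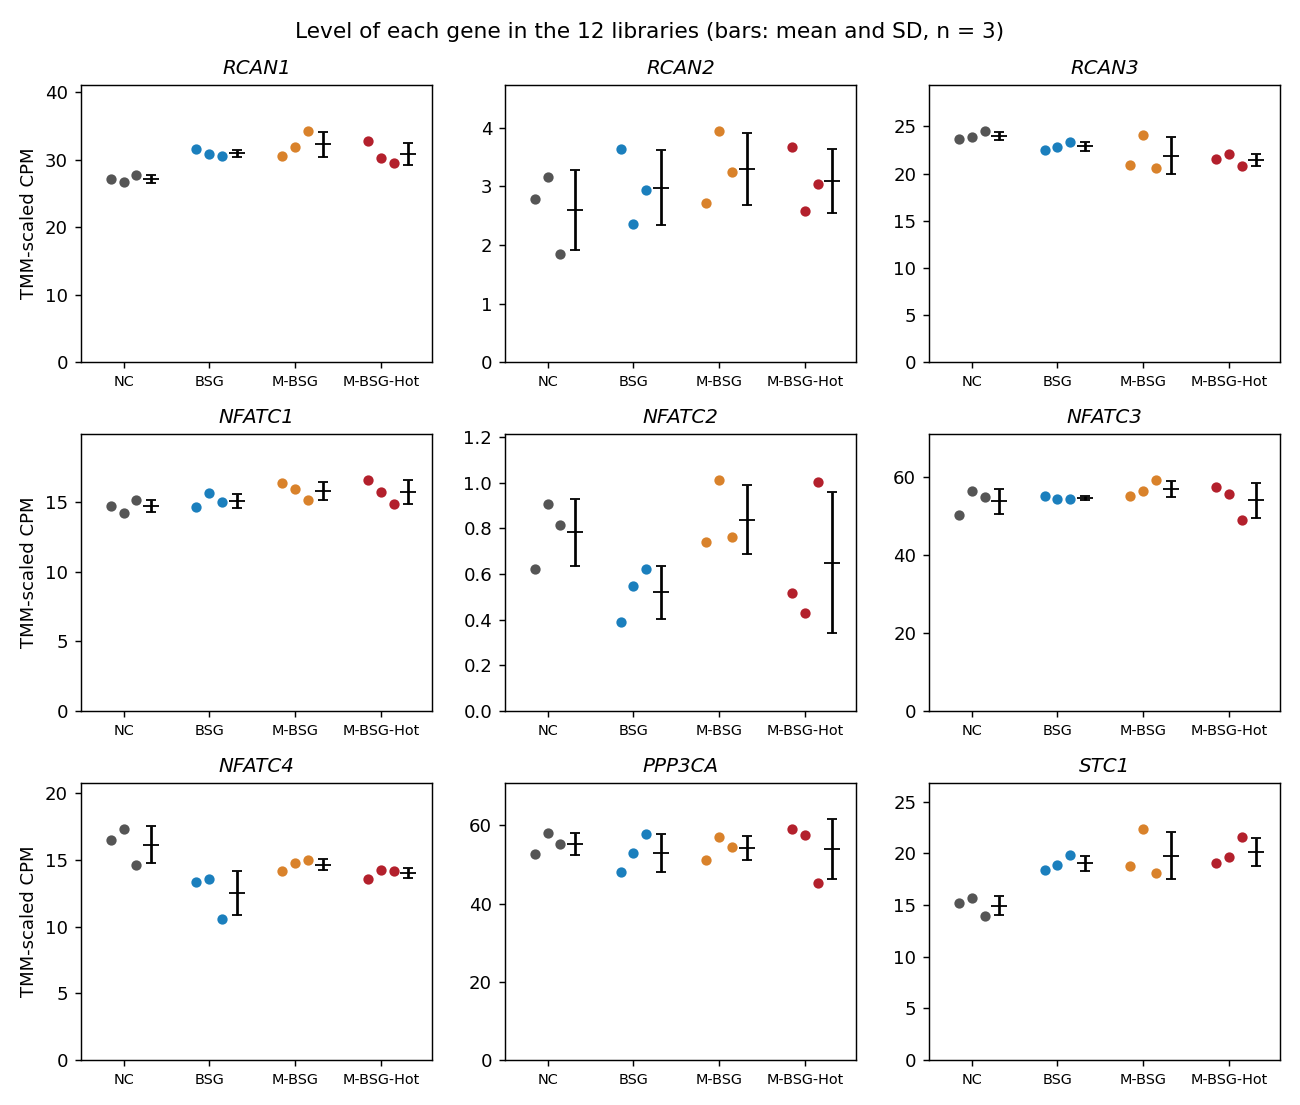
TMM-scaled CPM of the 9 genes in each library (points, 3 per group) with the group mean and SD beside them; each vertical axis starts at 0. All 9 treated libraries lie above all 3 NC libraries for RCAN1 and for STC1, and the groups overlap for most other genes.

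STC1, stanniocalcin-1, was higher in each of the treated groups than in NC. Its level was 15.1, 15.7 and 13.9 CPM in NC 1, 2 and 3, and 18.4, 18.9 and 19.8 CPM in BSG 1, 2 and 3. It was 18.8, 22.4 and 18.1 CPM in M-BSG and 19.1, 19.7 and 21.6 CPM in M-BSG-Hot. The lowest treated library, M-BSG 3, lay above the highest NC library, NC 2, so that the treated and control libraries did not overlap. The means were 14.9 ± 0.921 CPM in NC, 19.0 ± 0.730 in BSG, 19.8 ± 2.29 in M-BSG and 20.1 ± 1.32 in M-BSG-Hot (SD, n = 3 each).

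Against NC, STC1 rose 1.28-fold in BSG, or 0.35 on the log2 scale (SE 0.10, adjusted p = 0.0366 by edgeR's quasi-likelihood test). In M-BSG the rise was 1.32-fold (log2 0.41, SE 0.10, edgeR adjusted p = 0.0252) and 1.35-fold in M-BSG-Hot (log2 0.43, SE 0.10, edgeR adjusted p = 0.0218). The rise was modest: the 95% intervals of the fold reached from 1.10 to 1.48 in BSG, from 1.14 to 1.54 in M-BSG and from 1.16 to 1.56 in M-BSG-Hot. Each call rested on few libraries. In BSG the adjusted p was 0.0854, 0.0734 and 0.154 without NC 1, 2 and 3, and 0.0537, 0.0539 and 0.0947 without BSG 1, 2 and 3. The M-BSG value was 0.0775, 0.0581 and 0.130 without NC 1, 2 and 3 and 0.119 without M-BSG 2. The M-BSG-Hot value was 0.0679, 0.0552 and 0.120 without NC 1, 2 and 3 and 0.0835 without M-BSG-Hot 3. Scaling by library size only gave 0.0926, 0.0583 and 0.0562 in BSG, M-BSG and M-BSG-Hot, and the fit with no filter on low counts gave 0.0652 in BSG. With limma on log2(FPKM + 0.1) it was 0.0987, 0.0694 and 0.0629. When the libraries BSG 1, M-BSG 1 and M-BSG-Hot 3 were all omitted, it was 0.0181, 0.00650 and 0.0245. Over 24 alternatives STC1 was called in 14 in BSG, 17 in M-BSG and 17 in M-BSG-Hot.

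The relatives of STC1 did not share a called rise. STC2, which encodes the related stanniocalcin-2 and was at 264 CPM in NC, had log2 fold changes of 0.03, -0.09 and -0.10 in BSG, M-BSG and M-BSG-Hot. PAPPA, the protease that stanniocalcins bind and inhibit, had -0.49, -0.10 and -0.26. Neither of these 2 genes was called in any comparison by edgeR, DESeq2 or limma, and 0 passed an unadjusted p under 0.05 in edgeR. The tested genes whose log2 CPM followed STC1 most closely over the 12 libraries were DHX32, TSC22D1 and RARA, each with a Pearson r of 0.89, a description over libraries that share the group structure.

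RCAN1, the feedback inhibitor of calcineurin, was slightly higher in every treated library than in every control library, but did not pass the test in any of the 3 groups. Its level was 27.1, 26.6 and 27.8 CPM in NC 1, 2 and 3, and 31.5, 30.9 and 30.5 CPM in BSG. It was 30.6, 31.97 and 34.3 CPM in M-BSG and 32.7, 30.3 and 29.5 CPM in M-BSG-Hot. Over all tested genes, 5.40% had all 9 treated libraries above all 3 NC libraries and 7.23% had them all below. Among the members RCAN1 and STC1 were of the first kind and 0 of the second. The fold against NC was 1.14 in BSG (95% interval 1.02 to 1.27, edgeR adjusted p = 0.107), 1.19 in M-BSG (1.06 to 1.33, adjusted p = 0.0677) and 1.13 in M-BSG-Hot (1.02 to 1.27, adjusted p = 0.221). In M-BSG the adjusted p fell below the threshold with DESeq2 (0.0153), with the gene length trend removed (0.0229), without BSG 1 (0.0434) and without BSG 1, M-BSG 1 and M-BSG-Hot 3 (0.0145), and in BSG with the length trend removed (0.0139). For all RCAN1 transcripts counted together, inductions above 1.33-fold lay outside all 3 intervals, which rest on 3 libraries per group. These intervals set no bound for the short transcript alone.

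With the 3 treated groups averaged against NC, a contrast added after these values were seen, RCAN1 rose 1.15-fold (95% interval 1.05 to 1.26, edgeR adjusted p = 0.0450) and STC1 1.32-fold (1.16 to 1.49, adjusted p = 0.00648). In that contrast 2 of the 9 members were called, both higher, and 11.0% of all tested genes, 4.19% higher and 6.85% lower. The 9 treated libraries did not overlap with NC for 2 of the members and for 12.6% of all tested genes. The RCAN1 call was lost without NC 1 (adjusted p = 0.148), NC 2 (0.205), NC 3 (0.135), BSG 2 (0.0571), BSG 3 (0.0609), M-BSG 2 (0.0625), M-BSG 3 (0.0843) or M-BSG-Hot 1 (0.0690), and with the replicate number as a block (0.0619). It was also lost with library size scaling (0.192) and with no filter on low counts (0.154). In all, the RCAN1 call was made in 10 of 23 alternatives, so the losses named here are not all of them. The STC1 call was lost without NC 3 only (0.0628).

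The counts are given per gene symbol, so the long and the short RCAN1 transcripts could not be told apart. RefSeq lists 6 start windows for RCAN1 (250 bases before to 50 after a start, GRCh38.p14), of which 5 lie downstream of the most upstream start. The pair below shows the most upstream window and the downstream window with the most matches, picked for that number, to compare their copies of GGAAA, the core of NFAT binding sites. Capitals mark GGAAA on either strand (TTTCC on the printed strand).
RCAN1 downstream start, chr21:34526773-34527072, minus strand: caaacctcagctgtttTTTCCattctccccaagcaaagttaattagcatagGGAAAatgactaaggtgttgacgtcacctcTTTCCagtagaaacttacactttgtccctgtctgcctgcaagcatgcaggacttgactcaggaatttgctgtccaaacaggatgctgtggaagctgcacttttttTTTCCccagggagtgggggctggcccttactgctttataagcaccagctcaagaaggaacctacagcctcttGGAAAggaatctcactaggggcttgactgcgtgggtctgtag
RCAN1 most upstream start, chr21:34615064-34615363, minus strand: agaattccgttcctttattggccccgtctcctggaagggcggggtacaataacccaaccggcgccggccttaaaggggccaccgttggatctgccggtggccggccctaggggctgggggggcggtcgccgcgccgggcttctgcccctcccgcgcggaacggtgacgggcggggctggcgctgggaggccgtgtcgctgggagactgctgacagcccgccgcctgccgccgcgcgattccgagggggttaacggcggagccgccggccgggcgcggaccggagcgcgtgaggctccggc

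The downstream window held 5 matches and the most upstream window 0. Of the other 4 RCAN1 windows, the 2 farthest downstream held 1 match each and 2 held 0. Of all 35116 windows of 300 bases, 61.2% held at least 1 match and 0.740% held 5 or more. Windows were listed for 7 of the 9 members, 20 in all, of which 11 held a match. The window of NFATC2 at chr20:51562790-51563089 held 3, and every other window of a member held 0 to 2. A match of these letters describes the sequence and is no measured binding site.

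RCAN3 and RCAN2, the other calcineurin-binding inhibitors of the family, were not called in any comparison. The NC libraries had 23.7, 23.8 and 24.5 CPM of RCAN3, and the BSG libraries 22.5, 22.8 and 23.4 CPM. The M-BSG libraries had 20.9, 24.1 and 20.6 CPM, and the M-BSG-Hot libraries 21.6, 22.1 and 20.8 CPM. The BSG and the M-BSG-Hot libraries all lay below the NC libraries, and M-BSG 2 lay among them. Its folds against NC were 0.953, 0.911 and 0.894 in BSG, M-BSG and M-BSG-Hot, with 95% intervals that together spanned 0.793 to 1.07 (edgeR adjusted p = 0.583, 0.428 and 0.337). RCAN3 and RCAN1 thus had opposite signs in all 3 comparisons, and the difference between the 2 genes was not tested. RCAN2 ranged from 1.84 to 3.94 CPM over the 12 libraries, with groups that overlapped, and its 95% intervals against NC reached from 0.806-fold to 1.80-fold.

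NFATC4, one of the 4 calcium-regulated NFAT factors, was lower in BSG than in NC. Its level was 16.5, 17.3 and 14.6 CPM in NC 1, 2 and 3 and 13.4, 13.5 and 10.6 CPM in BSG 1, 2 and 3. It was 14.2, 14.8 and 14.999 CPM in M-BSG and 13.6, 14.3 and 14.1 CPM in M-BSG-Hot. BSG and M-BSG-Hot did not overlap with NC, while M-BSG 2 and 3 lay above NC 3. The mean fell from 16.1 ± 1.39 to 12.5 ± 1.65 CPM (SD, n = 3 and 3), or by -0.37 on the log2 scale (SE 0.11, edgeR adjusted p = 0.0415).

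The NFATC4 call in BSG was lost without NC 1 (adjusted p = 0.102), NC 2 (0.161), NC 3 (0.0508), BSG 1 (0.0535), BSG 3 (0.119), M-BSG 3 (0.0579), M-BSG-Hot 2 (0.0631) or M-BSG-Hot 3 (0.0539). It was also lost with the trend on gene length removed (log2 -0.26, adjusted p = 0.130) and in a fit of BSG and NC alone (0.0904). In M-BSG and M-BSG-Hot the log2 fold changes were -0.14 and -0.21 (edgeR adjusted p = 0.559 and 0.353). The direct comparison of M-BSG with BSG gave a fold of 1.17 (95% interval 0.999 to 1.38, edgeR adjusted p = 0.635), although these groups did not overlap. The tested genes that followed NFATC4 most closely over the 12 libraries were LURAP1 (r = 0.93), PKN3 (0.89) and TBX6 (0.88), of which LURAP1 and TBX6 had mean levels of 1.82 and 0.901 CPM.

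The more abundant NFATC3 and the moderately expressed NFATC1 differed little between groups. For NFATC3 the NC libraries had 50.2, 56.3 and 54.7 CPM and the BSG libraries 55.2, 54.2 and 54.3 CPM. The M-BSG libraries had 55.1, 56.4 and 59.2 CPM and the M-BSG-Hot libraries 57.4, 55.6 and 49.0 CPM, so that all groups overlapped. Its folds against NC were 1.02, 1.06 and 1.01, and the 3 intervals together spanned 0.895 to 1.19. For NFATC1 the group means were 14.7 ± 0.446 CPM in NC, 15.1 ± 0.510 in BSG, 15.8 ± 0.631 in M-BSG and 15.7 ± 0.862 in M-BSG-Hot. The NFATC1 intervals spanned 0.906-fold to 1.22-fold. Exons of NFATC3 overlap other genes in the GENCODE annotation, among them ESRP2 on the opposite strand, and an opposite-strand RNA overlaps RCAN3. Whether counting used strand is not given in the sources used here, so values of NFATC3 and RCAN3 may hold reads of those genes.

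NFATC2, the NFAT factor best known from T cells, was too low for a firm comparison. NC 1, 2 and 3 had 22, 35 and 31 counts, and the BSG libraries had 14, 21 and 23. The M-BSG libraries had 27, 38 and 28 counts and those of M-BSG-Hot 19, 16 and 37. All BSG libraries lay below all NC libraries, with a fold of 0.666, but the 95% interval ran from 0.385 to 1.15 (edgeR adjusted p = 0.295), so that a difference was not detectable at this depth.

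PPP3CA was near its control level in each treated group. The NC libraries had 52.6, 58.2 and 55.2 CPM and the BSG libraries 48.1, 52.9 and 57.7 CPM. The M-BSG libraries had 51.2, 57.1 and 54.5 CPM and the M-BSG-Hot libraries 59.1, 57.6 and 45.2 CPM, and all groups overlapped. The lowest values were those of BSG 1 and M-BSG-Hot 3, both among the libraries that differed most within their groups, M-BSG-Hot 3 by a small margin. The folds were 0.956, 0.981 and 0.976 in BSG, M-BSG and M-BSG-Hot, with 95% intervals that together spanned 0.819 to 1.15 (edgeR adjusted p = 0.700, 0.935 and 0.902).

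**Figure D3:**
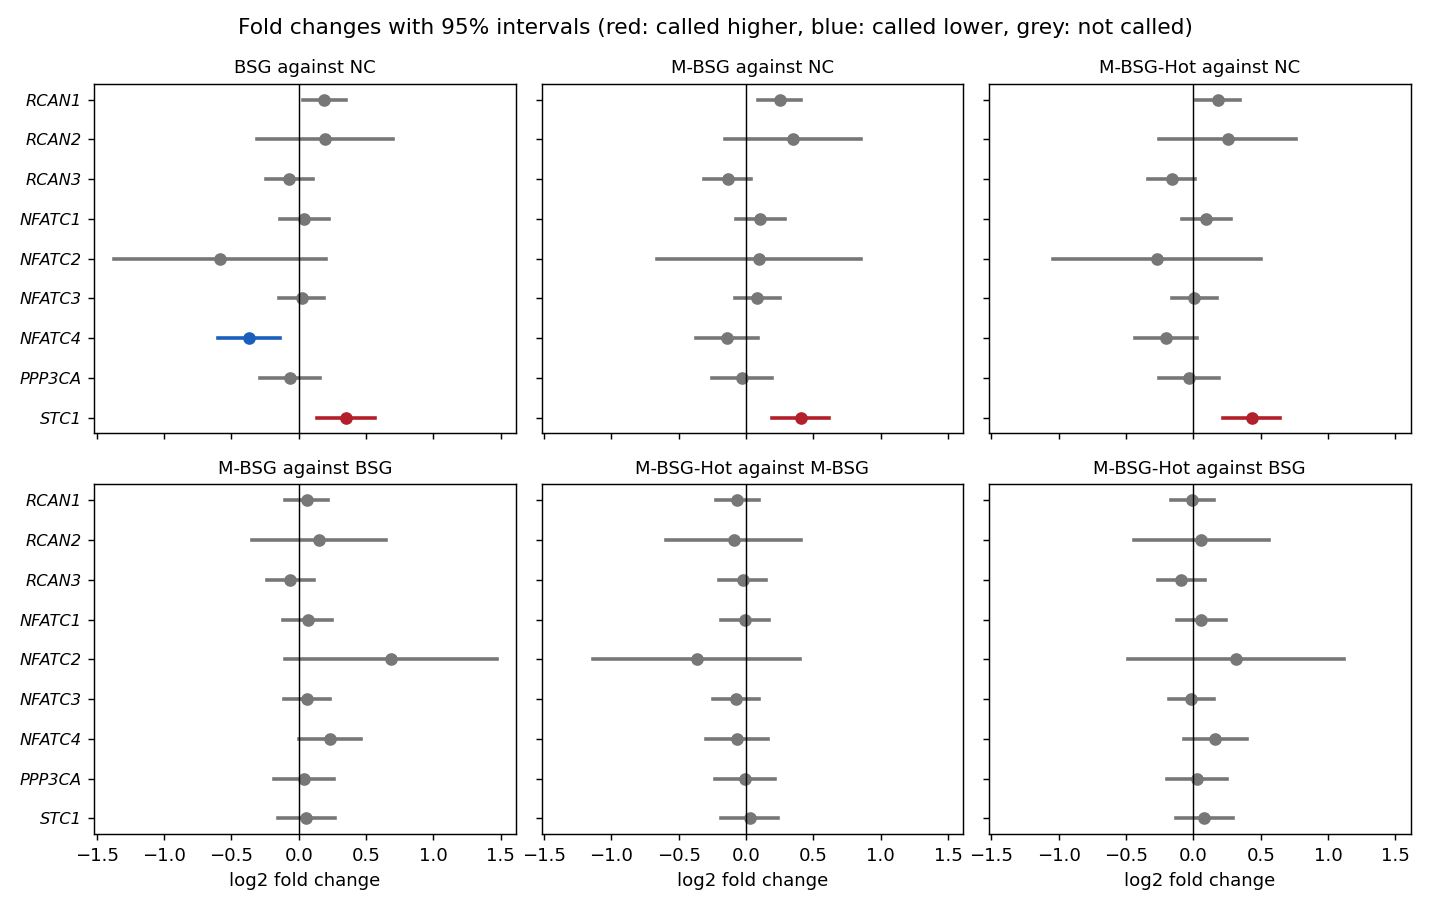
Log2 fold change of the 9 genes in the 6 comparisons between groups (points) with 95% intervals (lines); red marks genes called higher, blue genes called lower and grey genes not called. STC1 is called in the 3 comparisons with NC and NFATC4 in BSG against NC, and no gene is called in the lower row.

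Between the treated groups no member was called. In M-BSG against BSG, which asks as far as the names tell what the magnetic component added, 0 of 9 were called, where 0.130% of all tested genes were, all lower. NFATC2 and NFATC4 did not overlap there, like 8.89% of all tested genes. In M-BSG-Hot against M-BSG, the heating step by its name, it was 0 of 9 with 0.694% of all tested genes (0.0974% higher, 0.597% lower), and every member overlapped, where 13.8% of all tested genes did not. In M-BSG-Hot against BSG it was 0 of 9 with 0.850% (0.0974% higher, 0.753% lower), and RCAN3 and NFATC4 did not overlap, like 16.7% of all tested genes. The count at an unadjusted p under 0.05 was 0 in each of these comparisons by edgeR, and DESeq2 and limma each called 0. For the heating step the 95% interval of the log2 fold change ran from -0.18 to 0.24 for STC1, from -0.23 to 0.09 for RCAN1 and from -0.30 to 0.16 for NFATC4. For PPP3CA it ran from -0.23 to 0.22.

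The other pathway genes were taken from 6 lists of 58 genes, of which 52 were tested. By edgeR 5 were higher and 1 lower in BSG (11.5% of those tested), 5 higher and 0 lower in M-BSG (9.62%), and 4 higher and 0 lower in M-BSG-Hot (7.69%) against NC. Over all tested genes the shares called were 11.7%, 6.35% and 4.91%. The BSG share was near this background, and with so few calls the other shares do not stand out from it either. The NFAT target genes made up 5 of the 6 calls in BSG, 4 of the 5 in M-BSG and all 4 in M-BSG-Hot. TNF, among these calls in BSG and M-BSG-Hot, passed the filter on low counts only through treated libraries. The lists were chosen with earlier results of these data known.

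Of the other calcineurin subunits, the regulatory subunit gene PPP3R1 had -0.01, 0.08 and 0.01 and the catalytic subunit gene PPP3CB -0.04, -0.10 and -0.09 on the log2 scale in BSG, M-BSG and M-BSG-Hot, and neither was called by edgeR. The catalytic subunit gene PPP3CC had means of 12.4 CPM in NC, 14.8 in BSG, 12.4 in M-BSG and 11.9 in M-BSG-Hot. Its BSG and NC libraries did not overlap. The log2 fold change there was 0.25 (95% interval 0.04 to 0.46), not called by edgeR (unadjusted p = 0.0214, adjusted p = 0.102).

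Of 19 genes for calcium entry and stores, such as the channel gene ORAI1 and the store sensor STIM1, 0 were called by edgeR in any comparison with NC. Their median log2 fold change was -0.05 in BSG, -0.01 in M-BSG and 0.05 in M-BSG-Hot. The counts at an unadjusted p under 0.05 were 3, 0 and 0, DESeq2 called 1, 0 and 0 (SARAF in BSG), and limma called 0 each time. Of 10 genes for NFAT kinases, cofactors and NFAT5, 0 were called by edgeR, with 2, 1 and 1 at an unadjusted p under 0.05. DESeq2 called 1 in each group, HOMER2 in BSG and CSNK1D in M-BSG and M-BSG-Hot, and limma called 0. Of 4 calcineurin inhibitors and partners, 0 were called by edgeR, DESeq2 or limma, with 1, 0 and 1 at an unadjusted p under 0.05.

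Among the 9 other calcineurin substrates, 1 was lower in BSG and 1 higher in M-BSG. CRTC1, a coactivator of CREB that calcineurin dephosphorylates, fell from 8.55 to 5.53 CPM in BSG, or by -0.63 on the log2 scale (SE 0.14, edgeR adjusted p = 0.0126; 0.0624 without NC 3). Its relative CRTC2 rose from 60.8 to 72.0 CPM in M-BSG by 0.24 on the log2 scale (SE 0.07, edgeR adjusted p = 0.0463). The CRTC2 call was lost without NC 1 (adjusted p = 0.117), NC 2 (0.184), NC 3 (0.153), BSG 2 (0.0588), BSG 3 (0.0653), M-BSG 1 (0.0643), M-BSG 2 (0.126), M-BSG 3 (0.160) or M-BSG-Hot 1 (0.0566). It was also lost with the replicate block (0.0655), library size scaling (0.153), no filter on low counts (0.179) and limma on log2 FPKM plus 0.1 (0.104) or plus 1 (0.0915), and was made in 10 of 24 alternatives.

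Genes that NFAT is known to bind in other cells gave most of the calls. Of 8 tested NFAT target genes, 5 were higher in BSG, 4 in M-BSG and 4 in M-BSG-Hot, with 0 lower by edgeR. Over all tested genes 5.50%, 3.22% and 1.40% were called higher. TNF, called in BSG and M-BSG-Hot, passed the filter on low counts only through treated libraries. Its calls were thus tied to the values that let it into the test. IL6, named after its values were seen, also needed treated libraries to pass that filter. It had 7, 2 and 17 counts in NC 1, 2 and 3 and 26, 19 and 20 in BSG 1, 2 and 3. No comparison with NC called IL6 by edgeR. At an unadjusted p under 0.05 the counts were 8, 6 and 5, with IL6 and TNF among the 8 in BSG. DESeq2 and limma each called 5, 4 and 5 genes in either direction. The median log2 fold change of the list was 1.33, 1.10 and 0.65. EGR3 (1.34) and IL6 (1.32) set the BSG value. With TNF, which had 0 counts in NC, put at its bound (no change in M-BSG), the medians were 1.33, 1.03 and 0.65. EGR2, a transcription factor, was at 1.73, 1.58 and 1.10 CPM in NC and at 18.2, 26.5 and 22.2 CPM in BSG. It was at 16.6, 17.4 and 23.1 CPM in M-BSG and at 3.51, 10.5 and 8.72 CPM in M-BSG-Hot, so that every treated library lay above every NC library. PTGS2, the inducible prostaglandin synthase, went from a mean of 3.79 CPM in NC to 12.3 in BSG, 13.9 in M-BSG and 7.78 in M-BSG-Hot. VEGFA, a blood vessel growth factor gene named after its values were seen, went the other way, from a mean of 148.8 CPM in NC to 128.1 in BSG, 126 in M-BSG and 120.3 in M-BSG-Hot, without overlap. Its log2 fold changes of -0.22, -0.23 and -0.31 were not called by edgeR (adjusted p = 0.109, 0.143 and 0.0575), DESeq2 called it in M-BSG-Hot, and in the average of treated groups against NC edgeR called it lower (-0.25, adjusted p = 0.0293). Whether NFAT drove these genes was not tested. The list was chosen with earlier results of these data known.

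The remaining calls in that list were EGR3, CXCL8 and TNF, the last 2 named after their values were seen. EGR3 was higher in BSG and M-BSG (log2 1.34 and 1.14) and had 0.35 in M-BSG-Hot (edgeR adjusted p = 0.330). CXCL8, a neutrophil chemokine gene, rose by 1.10, 1.06 and 0.94 on the log2 scale in BSG, M-BSG and M-BSG-Hot. TNF had 0 counts in every NC library, 8 to 22 counts in BSG libraries, 2 to 4 in M-BSG libraries and 3 to 15 in those of M-BSG-Hot. Against a floor of 3 counts per NC library its mean was at least 5.31-fold higher in BSG and at least 2.80-fold higher in M-BSG-Hot, while the M-BSG mean lay under that floor and was not called (edgeR adjusted p = 0.153).

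In M-BSG-Hot the calls of this list moved with single libraries: PTGS2 was lost without NC 2 (adjusted p = 0.0666), CXCL8 without NC 1 (0.0864), NC 2 (0.0681) or M-BSG-Hot 1 (0.0749), and TNF without NC 1 (0.0644), NC 2 (0.0770), NC 3 (0.0741) or M-BSG-Hot 3 (0.0790). Their number ranged from 1 to 5 over the fits that left out 1 library, with the lowest value without NC 2.

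In M-BSG-Hot against BSG, EGR2 and EGR3 were lower, by -1.56 and -0.99 on the log2 scale (edgeR adjusted p = 0.0227 and 0.0129). Both calls were lost without BSG 2 (0.0765 and 0.0609), BSG 3 (0.0758 and 0.0646) or M-BSG-Hot 3 (0.0617 and 0.0546), and that of EGR3 also without M-BSG-Hot 1 (0.0708). In M-BSG-Hot against M-BSG the log2 fold changes were -1.33 for EGR2, -0.79 for EGR3 and -0.83 for PTGS2. There edgeR called none of these 3 genes (adjusted p = 0.0578, 0.0528 and 0.0972) nor did limma, while DESeq2 called all 3 lower (adjusted p = 0.0265, 0.00139 and 0.00646). Over 24 alternatives EGR2 was called in 7, EGR3 in 8 and PTGS2 in 8. The short RCAN1 transcript is an NFAT target as well, but these counts do not separate it from the long one. For all RCAN1 transcripts together the fold against NC was 1.13 to 1.19, which sets no bound for the short one alone. Mean EGR2 was 1.47 CPM in NC, 22.3 in BSG, 19.0 in M-BSG and 7.58 in M-BSG-Hot. Whether NFAT drove either gene was not tested.

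**Figure D4:**
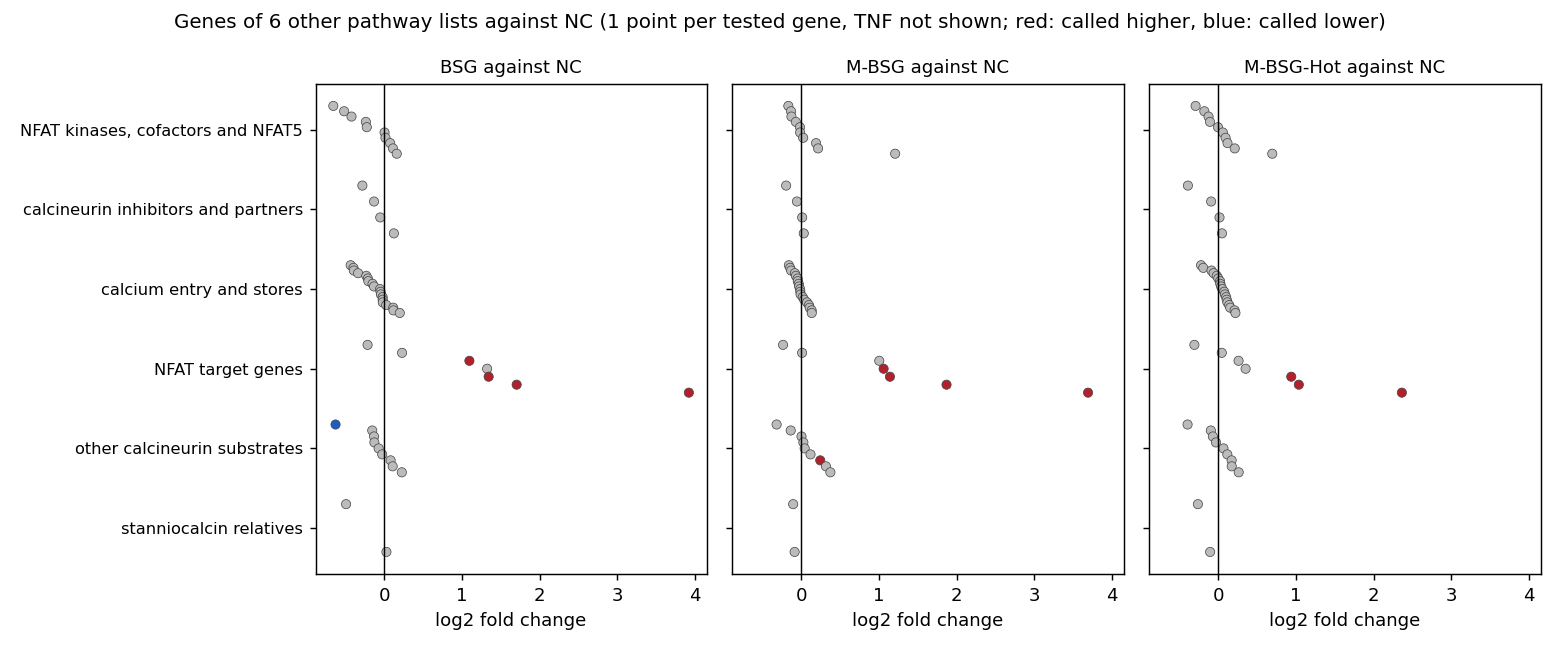
Log2 fold change against NC of the tested genes in 6 other pathway lists (1 point per gene, TNF left out because it has 0 counts in NC), in BSG, M-BSG and M-BSG-Hot; red marks genes called higher and blue genes called lower. The points beyond a log2 fold change of 1 lie in the row of NFAT target genes, apart from 1 grey point in the row of NFAT kinases in M-BSG, CSNK1E, which was at 0.114 CPM in NC.

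**Figure D5:**
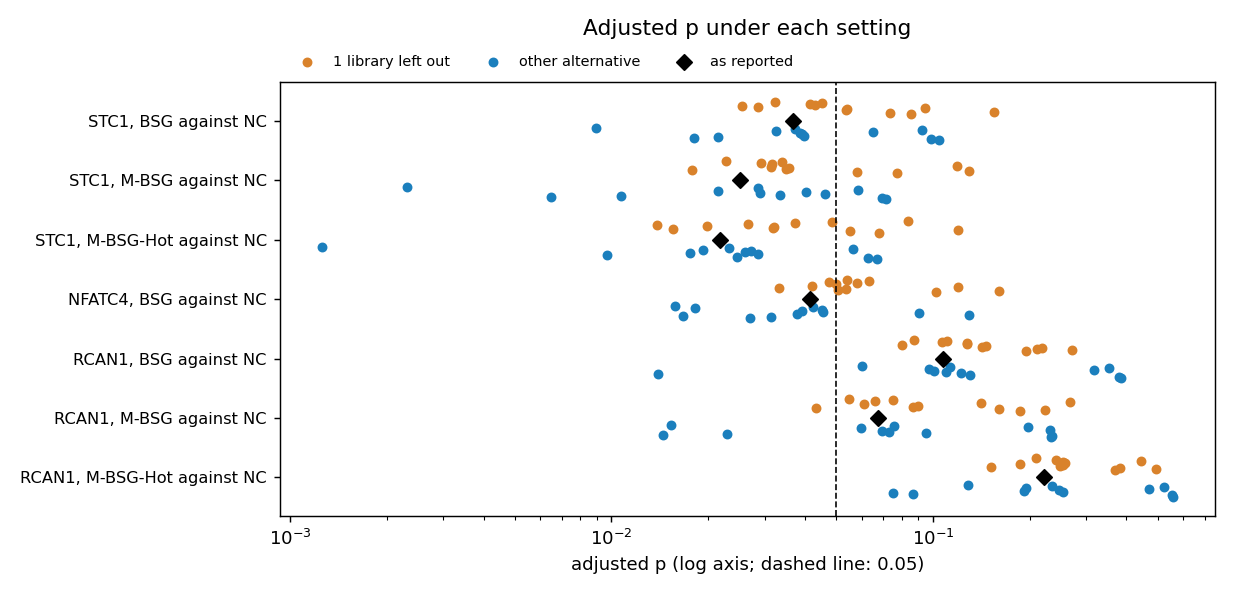
Adjusted p on a log axis for STC1 and RCAN1 in BSG, M-BSG and M-BSG-Hot and for NFATC4 in BSG, each against NC, as reported (black diamonds), with 1 library left out (orange) and under the other alternatives (blue); the dashed line is the threshold of 0.05. Points fall on both sides of the line for each result plotted apart from RCAN1 in M-BSG-Hot, which stays to its right.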

How the data were processed

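Per the labels' protocols, the 12 libraries were made with a SMARTER mRNA-Seq kit. The authors deposited raw counts and FPKM values per gene symbol for each library. No aligner, counter or strand setting is named in the labels or file headers. Although the tables hold human symbols, mouse builds (GRCm38 and mm10) stand in the submitters' processing notes, which leaves the genome build of the tables unknown. All 230445 deposited FPKM values above 0 corresponded to the counts with a whole-number gene length (tolerance 1e-06).

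Counts were fitted with edgeR 4.0.16 (R 4.3.3; filterByExpr with a minimum count of 10, TMM factors, quasi-likelihood test, all 12 libraries) over 15407 of 24180 symbols, with Benjamini-Hochberg adjustment and a threshold of 0.05. DESeq2 1.42.0, limma 3.58.1, other scalings and filters, and fits without single libraries were alternatives. A count of 3 was the floor, 0.0786 to 0.0871 CPM; such limits cover counting error only. The model was tested on simulated data. No replicate pair within a group agreed within sampling noise (chi-square per degree of freedom 3.37 to 60.9).

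The members and lists were chosen with earlier results of these data known. Named were all members, up to 3 genes per list with the smallest adjusted p among those called against NC without overlap, and the 3 genes most correlated with each called member. The average of the treated groups against NC was added after values were seen. Some results of the gene lists are not reported here.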

Additional observations from a re-analysis of the deposited data

How the results depend on the processing

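Over 24 alternatives, the 4 calls of members kept their sign, and 48 of the 50 uncalled pairs of member and comparison were called in none, while 25 of the 50 changed sign in at least 1. The number of members called in BSG against NC was 2 and became 1 with library size scaling, with no count filter or with the 2 groups only; in M-BSG it was 1 and became 0 with library size scaling and 2 with DESeq2, with the gene length trend removed or without BSG 1, M-BSG 1 and M-BSG-Hot 3; in M-BSG-Hot it was 1 and became 0 with library size scaling. The cause was not tested. In the added average of treated groups the number of members called was 2 and became 1 with no count filter or the replicate block. An unchanged number need not mean the same genes. RCAN1 lost its call there with library size scaling, and NFATC4 was called lower in 1 alternative. Leaving out 1 library gave 0 to 2 members in BSG, 0 to 2 in M-BSG, 0 to 1 in M-BSG-Hot and 0 to 2 in the average, and 0 between treated groups.

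Over all genes, BSG against NC had 1806 calls (2810 by DESeq2, 857 to 2556 without 1 library) and M-BSG-Hot 756 (1161 by DESeq2, 388 to 958). M-BSG had 979 calls (543 to 1210), 1972 without the 3 libraries named above.

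Whether replicate numbers pair the libraries was not settled. Deviations of the 18 same-number pairs correlated with r from -0.29 to 0.41 (median 0.03). For the 36 pairs with different numbers r ran from -0.32 to 0.29 (median -0.01). Same-number pairs among NC, BSG and M-BSG were all positive (0.04 to 0.41), while most of those with M-BSG-Hot were negative. Not every library correlated best with its own number. The replicate block left the number of members called at 2, 1 and 1 against NC. Precision was limited by 3 libraries per group, and for NFATC2 by 14 to 38 counts.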
